A study of Gossypium hirsutum with 6 samples.

Results

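The genes described here are those whose transcripts were far scarcer in virescent than in green leaves of upland cotton (Gossypium hirsutum). They number 146, out of 65126 gene identifiers in the table of RNA sequencing values and 38561 that met the criteria other than the fall itself. Leaves were taken as the first true leaf of plants of the virescent line Yt30, with the genotype label MSmsv1v1 and 3 libraries, and of green plants named wild type, with the genotype label msmsv1v1 and 3 libraries. Both genotypes carry the same v1v1 symbols, and the labels differ in the MS symbol. The series title calls the line a recessive genic male sterile one. The labels do not say whether the libraries of a genotype came from separate plants, so the spread between them may be technical. The labels name no agent or treatment, and they give no plant age beyond the leaf sampled.

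Virescent plants unfold pale young leaves that usually green as they age. Greening depends on the building of chloroplasts, which draws on genes of the plastid itself and on a much larger number of nuclear genes, among them those for chlorophyll synthesis, light harvesting and the plastid's own transcription and translation. In whole leaves, fewer cells of a type and less RNA per cell cannot be told apart. The deposited table gives identifiers without gene names, and the RefSeq table used here matched 0 of the 146 identifiers, so no function is given for any gene below and no leaf cell type could be checked by its markers. An identifier such as Gh_A04G1141 carries the subgenome (A or D), the chromosome number (04) and a running number (1141). Upland cotton is an allotetraploid, and the A and the D copy of a gene can be alike enough to share reads, which makes the value of a single identifier uncertain.

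Members had to carry a chromosome label, lie outside the stretch from Gh_D10G0184 to Gh_D10G0383, reach 1 FPKM in at least 3 libraries and average below 1000 FPKM. FPKM are fragments per kilobase of transcript, scaled to the mapped fragments of each library. The mean of log2(FPKM + 1) had to be lower by at least 2 in virescent leaves, which is 4-fold on that scale, and every virescent library had to lie below every wild-type library. These values chose the members, so their fall is a description here and carries no test. Of the 38561 eligible genes, which met all criteria but the change and the order of the libraries, 152 had a change of at most -2, and 6 of those dropped out because the genotypes overlapped. Among identifiers without a chromosome label, 2 of 738 tested ones on scaffolds and 8 of 3600 tested ones with the prefix BGI_novel met the same thresholds. In the excluded stretch of D10 and among labelled genes of 1000 FPKM or more, the number was 0.

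Transcripts of the members were reduced to a small remainder in virescent leaves. Their median level was 3.75 FPKM in virescent leaves and 31.4 FPKM in the wild type, while the medians of the 43104 tested genes were 5.62 and 5.52 FPKM. The median member kept 14.7% of its wild-type mean in virescent leaves (quartiles 9.88% and 17.5%, full range 1.44% to 24.4%). On the log2(FPKM + 1) scale the median change was -2.41, with 85 members between -2.5 and -2, 21 at -3 or below and 6 at -4 or below. The median change over all tested genes was 0.050. In virescent leaves 23 members averaged below 1 FPKM and 14 stayed below 1 FPKM in every library, but 99 stayed at 1 FPKM or more in every library and 0 were listed at 0 in all libraries. A fit of the whole table with limma put 137 of the 146 past a Benjamini-Hochberg adjusted p of 0.05, where 4.05% of all tested genes were called lower. Every virescent library lay below every wild-type library in 13.2% of all tested genes and, by the rule, in all 146 members. The choice of members largely fixed both of their counts. The count of called members changed when 1 library was left out. It was 35, 142 and 80 without wild type 1, 2 and 3, in that order. Without virescent 1, 2 and 3 it was 94, 129 and 107. With the replicate number as a block it was 44. The reason for these changes was not tested.

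**Figure D1:**
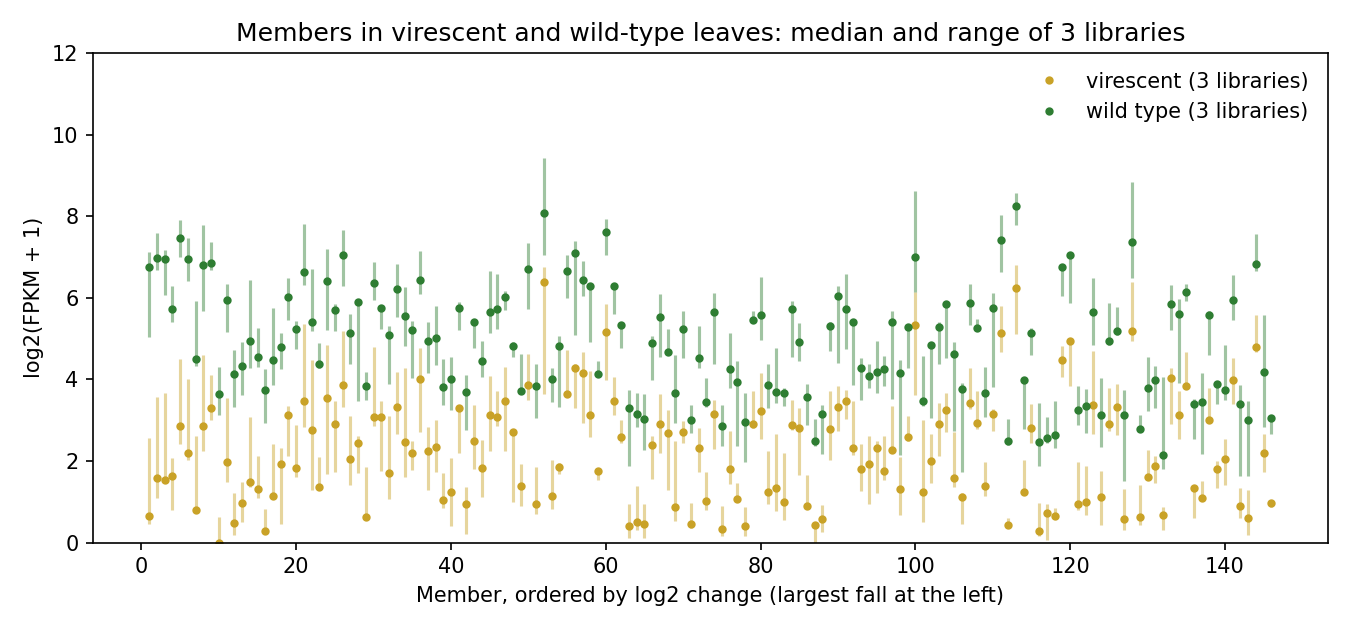
Level of each of the 146 members as log2(FPKM + 1), in virescent leaves (yellow) and wild-type leaves (green). Points are the median and lines the range of 3 libraries, and members run from the largest fall (-5.09) at the left to the smallest (-2.002) at the right; no pair of ranges overlaps.

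Together the members were a minor part of the transcriptome. They held 0.0762%, 0.164% and 0.0682% of the summed FPKM in virescent 1, 2 and 3, against 0.651%, 0.418% and 0.967% in wild type 1, 2 and 3. The means were 0.103% ± 0.053 in virescent leaves and 0.679% ± 0.275 in the wild type (SD, n = 3 each). The highest virescent share, that of library 2, lay below the lowest wild-type share, also that of library 2. The rule sets every member lower in each virescent library, so it largely fixed this separation and that of the counts that follow. At 10 FPKM or more stood 21, 53 and 16 members in virescent 1, 2 and 3, against 123, 97 and 135 in wild type 1, 2 and 3. The 10 members most abundant in the wild type made up 33.9% of the members' sum in virescent leaves and 29.2% in the wild type, so the sum was spread over many genes. By wild-type level, 23 members lay below 10 FPKM, 48 from 10 to below 30, 57 from 30 to below 100 and 18 at 100 FPKM or more. These were 0.0899%, 0.573%, 1.62% and 1.70% of the eligible genes of each class. The rule uses the wild-type level, and the lowest genes cannot reach the threshold even at 0 FPKM in virescent leaves. It thus partly fixed the rise of these shares with level. A low gene needs a deeper fall to reach the threshold on this scale: the median member kept 9.67% of its wild-type level below 10 FPKM and 13.2% from 10 to below 30 FPKM. In the 2 higher classes it kept 16.4% and 14.6%, in that order, so the share kept did not go on rising with level.

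The largest fall was that of Gh_A04G1141, on label A04. It had 0.56, 4.93 and 0.37 FPKM in virescent 1, 2 and 3, against 137, 31.9 and 108 FPKM in wild type 1, 2 and 3. Its log2 change was -5.09 ± 0.68 (SE). Virescent 2 was the highest library of its genotype and wild type 2 the lowest, and even these were 6.47-fold apart. Gh_D07G0318, on D07, had 2, 10.9 and 1.15 FPKM in virescent leaves, against 126, 101 and 193 FPKM in the wild type, a change of -5.00 ± 0.59 (SE). Its neighbour in number, Gh_D07G0317, had 6.22, 21.6 and 4.36 FPKM in virescent leaves, against 175, 128 and 241 FPKM in the wild type, a change of -4.20 ± 0.50 (SE). In both, virescent 2 again stood above the other virescent libraries.

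On A07, Gh_A07G0261 had 3.60, 15.1 and 3.07 FPKM in virescent leaves, against 123, 83.5 and 176 FPKM in the wild type (log2 change -4.19 ± 0.52, SE). Gh_A07G0263, which was named after its values were seen because it lies 2 numbers away, had 8.92, 16.1 and 7.04 FPKM in virescent leaves, against 114, 101 and 164 FPKM in the wild type. The table does not say whether these A07 genes and the pair on D07 are copies of each other. Gh_A08G0954 had 1.90, 11.7 and 1.73 FPKM in virescent leaves, against 123, 66.3 and 143 FPKM in the wild type, a change of -4.52 ± 0.58 (SE). Gh_A04G0377 departed from the order of libraries seen in those genes. It had 2.12, 3.24 and 0.74 FPKM in virescent leaves, against 41.3, 52.3 and 77.6 FPKM in the wild type, with wild type 1 lowest and a change of -4.30 ± 0.35 (SE).

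Members with the most RNA left were also those with the most in the wild type: the same 4 identifiers led both lists. Gh_D06G1939 had 74.2, 111 and 33.8 FPKM in virescent leaves, against 305, 221 and 377 FPKM in the wild type, with a log2 change of -2.15 ± 0.40 (SE). Gh_A03G0803 had 11.5, 107 and 83.4 FPKM in virescent leaves, against 130.5, 268 and 692 FPKM in the wild type, with a change of -2.59 ± 0.87 (SE). Here the wild-type libraries themselves differed 5.31-fold, and virescent 2 and wild type 1 were close to each other. Gh_D02G1225 had 11.3, 69.2 and 39.5 FPKM in virescent leaves, against 69.8, 126 and 393 FPKM in the wild type. Its order of libraries was the same as in Gh_A03G0803, and its highest virescent value came within 1.01-fold of its lowest wild-type value, the narrowest gap among the members. Gh_D12G1222 had 29.7, 83.2 and 35.6 FPKM in virescent leaves, against 165, 88.0 and 457 FPKM in the wild type. Of these 4 only Gh_D06G1939 was called by limma. The other 3 were among the 9 members that were not called.

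Separation between genotypes ranged widely. The lowest wild-type library exceeded the highest virescent library by a median of 2.53-fold, by at least 2-fold in 105 members, at least 4-fold in 28 and less than 1.5-fold in 19. The 2 members with the widest gaps are named after their values were seen, one of them already given above. Gh_A11G1529 had 0.55 FPKM in virescent 1 and was listed at 0 in virescent 2 and 3, against 11.5, 7.75 and 18.8 FPKM in the wild type, a gap of 14.1-fold. Gh_A04G0377 followed with a gap of 12.8-fold. At the other end, after Gh_D02G1225, stood Gh_D01G0502, also named after its values were seen. It had 1.56, 5.49 and 2.02 FPKM in virescent leaves, against 29.0, 5.67 and 23.4 FPKM in the wild type, so that virescent 2 and wild type 2 nearly met.

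Agreement among the virescent libraries was closest in Gh_A11G1420 and Gh_A03G0438. Gh_A11G1420 had 0.82, 1.01 and 0.97 FPKM in virescent leaves, against 7.33, 5.35 and 7.75 FPKM in the wild type. Gh_A03G0438 had 0.52, 0.31 and 0.35 FPKM in virescent leaves, against 4.65, 4.25 and 7.22 FPKM in the wild type. The widest virescent spreads on the log2 scale were those of Gh_A03G0803, given above, and of Gh_A05G1382, with 1.43, 21.1 and 5.80 FPKM in virescent leaves, against 41.3, 35.2 and 103 FPKM in the wild type. The closest 2 are genes of low level, for which log2(FPKM + 1) compresses differences.

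The edge of the set was not a gap in the data. Just inside it, Gh_A11G1420 had a log2 change of -2.002 and Gh_D07G0910 one of -2.005. Gh_D07G0910 had 2.29, 5.38 and 3.59 FPKM in virescent leaves, against 17.2, 6.10 and 47.1 FPKM in the wild type. Just outside it lay Gh_A01G0984, with 0.97, 2.09 and 1.20 FPKM in virescent leaves, against 11.9, 4.25 and 11.3 FPKM in the wild type, and a change of -1.99. Gh_A02G0320 followed at -1.98, with 12.3, 19.3 and 8.99 FPKM in virescent leaves, against 58.5, 42.2 and 64.2 FPKM in the wild type. At a threshold of -1.5 the set would hold 361 genes and at -2.5 it would hold 61.

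Most members shared an order of libraries within each genotype. The rule asks for no such order, but it was read from the same values that chose the members. How far the rule favours it was not tested. Virescent 2 was the highest virescent library in 136 of the 146 (93.2%) and wild type 2 was the lowest wild-type library in 134 (91.8%). Both held in 126, and neither in 2. Over all tested genes virescent 2 was highest in 37.1% and wild type 2 lowest in 30.9%. In 772 eligible genes with falls of -2 to -1 and no overlap, the shares were 72.4% and 76.2%. The order was thus common among moderate falls too. A single order, virescent 3 below 1 below 2 together with wild type 2 below 1 below 3, covered 72 members, and the order with virescent 1 below 3 covered another 36. Wild type 3 was the highest library of its genotype in 122 members. Over all 146 members the median level was 38.6 FPKM in wild type 3, against 29.6 and 18.5 FPKM in wild type 1 and 2. The virescent medians were 2.45, 6.21 and 2.35 FPKM in libraries 1, 2 and 3.

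Placed on each member's own scale, with the virescent mean at 0% and the wild-type mean at 100%, virescent 2 had a median position of 26.0% (quartiles 17.2% and 31.8%). Virescent 1 and 3 lay at -8.09% and -15.3%. Wild type 2 lay at 76.5% (quartiles 66.9% and 85.3%), with wild type 1 and 3 at 102% and 121%. Each of the number-2 libraries was thus displaced toward the other genotype. In 772 eligible genes with moderate falls, of -2 to -1 and without overlap, virescent 2 lay at 19.1% and wild type 2 at 75.5%. In 155 genes higher in virescent leaves by the same rule with the signs turned, they lay at 3.04% and 96.7%, close to the means of their genotypes. Virescent 2 and wild type 2 still lay toward the other genotype in 98 and 104 of these 155 genes. Among the 146 members they did so in 140 and 143. These sets share all libraries, and the difference between them was not tested.

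**Figure D2:**
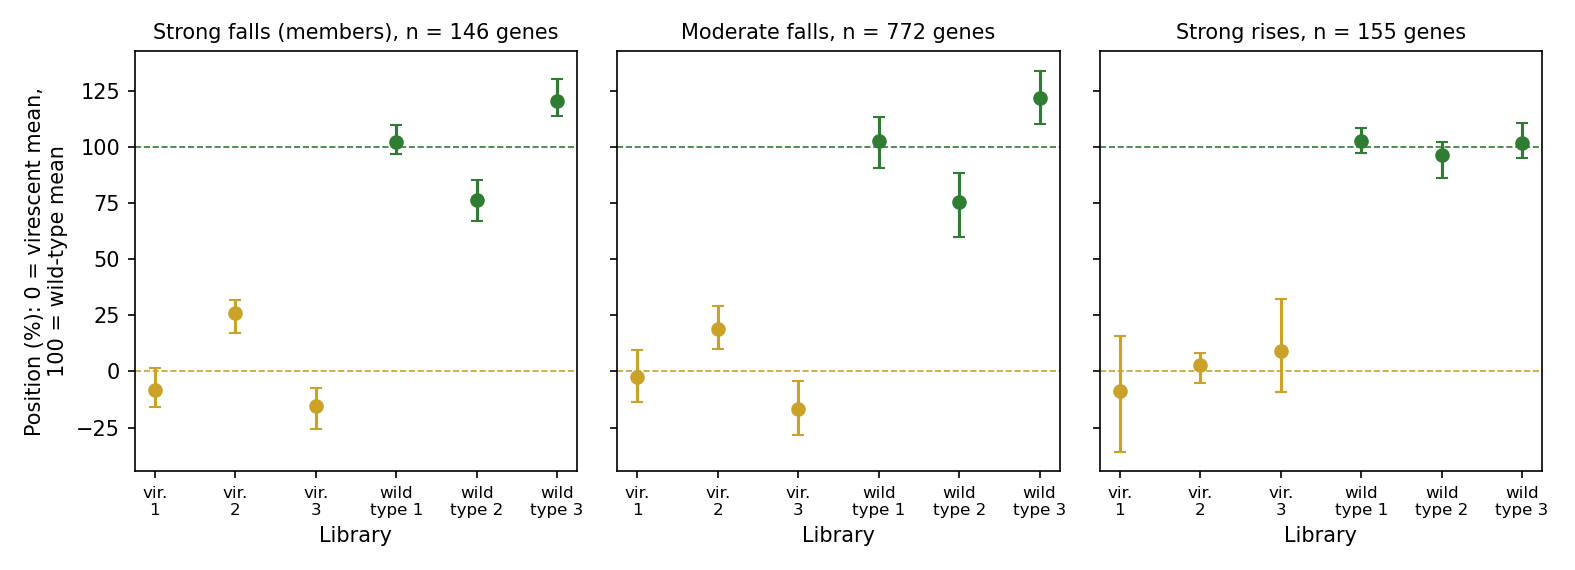
Position of each library between the genotype means (0% virescent, 100% wild type, on log2(FPKM + 1)) in the 146 members, 772 moderate falls and 155 strong rises. Points are medians over genes and bars the quartiles; in the members virescent 2 sits at 26.0% and wild type 2 at 76.5%, and in the strong rises at 3.04% and 96.7%.

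The spread within a genotype was also wide among members, which are more abundant than most tested genes in the wild type. The SD of log2(FPKM + 1) over 3 libraries had a median of 0.60 in virescent leaves and 0.60 in the wild type among members, against 0.18 and 0.17 over all tested genes. Moderate falls had medians of 0.32 and 0.38, and strong rises 0.77 and 0.26. Wild-type libraries differed at least 2-fold in 101 members and at least 4-fold in 24. When neither number-2 library was used, the median change of the 146 was -3.05, and 379 genes met the rule, the 146 among them. Without wild type 2 alone 257 genes met it, without virescent 2 alone 221, and without wild type 3 alone 93.

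Because the rule used all 6 libraries, the fall was also measured, for newly chosen genes, in libraries kept out of the choice. For each of the 9 pairs of 1 virescent and 1 wild-type library, genes were chosen by the same thresholds on the remaining 4 libraries, with 1 FPKM asked for in 2 of them. The left-out virescent library was then set against the left-out wild-type library. Between 77 and 387 genes were chosen. Each choice was a new set that shared 70 to 146 genes with the members, so its values are not those of the 146. Their median difference in the left-out pair lay between -3.55 and -0.75 on the log2(FPKM + 1) scale, where all eligible genes had medians between -0.003 and 0.089. The left-out virescent library was the lower one in 82.7% to 100% of the chosen genes, and in 41.7% to 50.2% of all eligible genes. A difference of -2 or below recurred in 4.65% to 96.5% of the chosen genes, against 0.101% to 1.53% of the eligible ones. The median difference was smallest for virescent 2 minus wild type 2, with 320 of 387 chosen genes lower at a median of -0.75. Of those 387 genes 146 were members. The median difference was largest for virescent 3 minus wild type 3, at -3.55, with 72 of 77 lower. Of those 77 genes 70 were members. The highest share at -2 or below was instead that of virescent 1 minus wild type 3, where all 85 chosen genes were lower. Each value compares 1 library with 1 library, so no p-value is given.

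**Figure D3:**
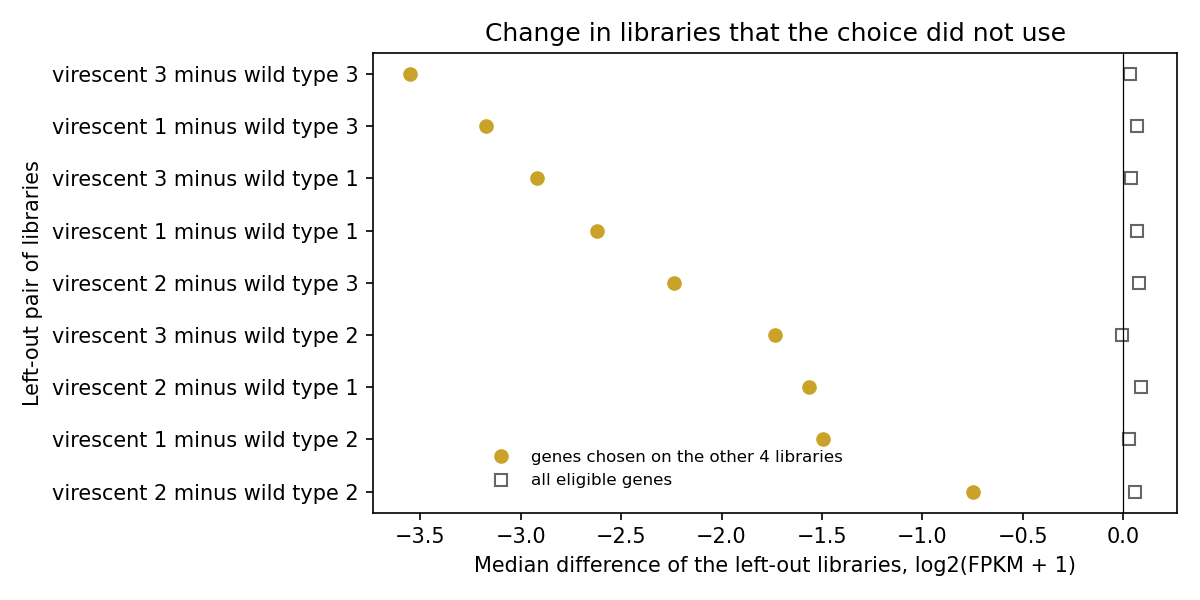
Median difference between a left-out virescent and a left-out wild-type library, on log2(FPKM + 1), for genes chosen on the other 4 libraries (filled circles) and for all eligible genes (open squares). The chosen genes lie between -3.55 and -0.75 and the eligible genes near 0; the 3 pairs with wild type 2 are at -1.73, -1.49 and -0.75.

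Members came from both subgenomes in nearly equal proportion. The A subgenome held 72 of 18997 eligible genes (0.379%) and the D subgenome 74 of 19564 (0.378%). Their median log2 changes were -2.40 in A and -2.43 in D, and their median wild-type levels 31.6 and 29.0 FPKM. Members were found on all 26 chromosome labels in unequal numbers. D12 held 12 (0.710% of its eligible genes) and A12 held 10 (0.611%), against 1 on A09 (0.0689%) and 1 on A10 (0.0727%). Taking the A and D labels of a number together, number 12 had 22 members (0.661%), number 10 had 3 (0.111%), number 9 had 5 (0.173%) and number 1 had 5 (0.191%). In 155 strong rises the counts were 7 for number 12, 14 for number 10, 19 for number 9 and 0 for number 1. When the running numbers of each label were cut into 4 equal parts, the members split into 31, 47, 36 and 32 from the lowest numbers to the highest. No test of position was made, since genes are not independent replicates.

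**Figure D4:**
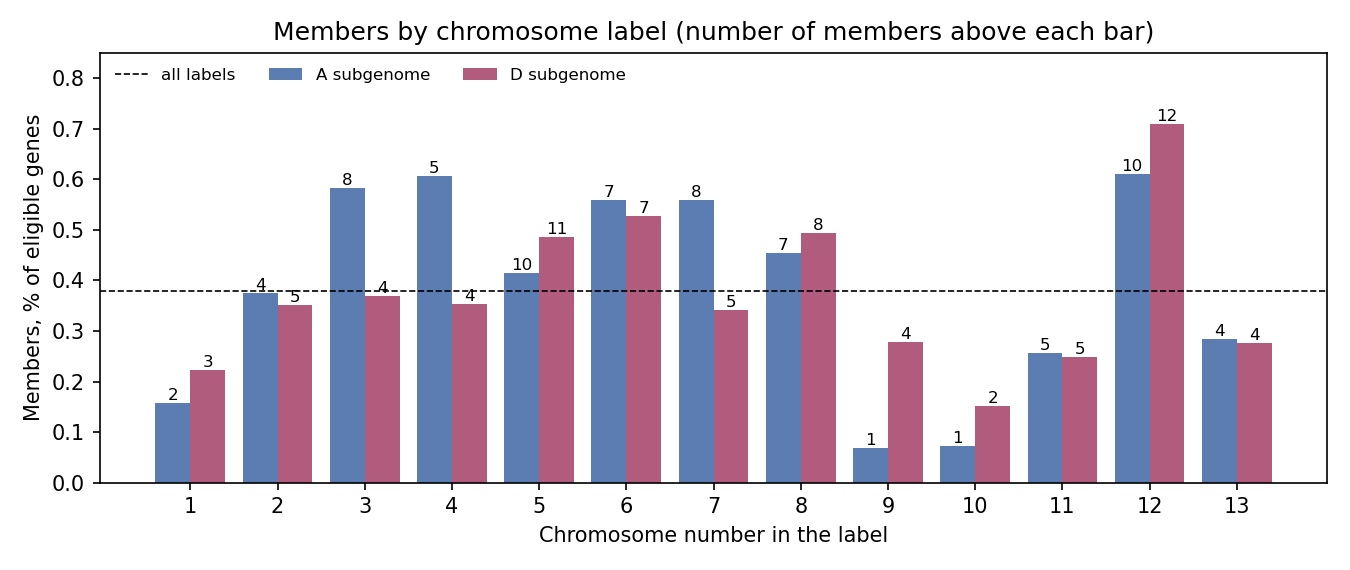
Members as a percentage of the eligible genes of each chromosome label, for the A and D subgenomes, with the number of members above each bar and the share over all labels (0.379%) as a dashed line. Labels of number 12 have the highest shares of their subgenome (0.611% for A12, 0.710% for D12), with A04 close behind A12 at 0.608%. Both labels of numbers 1, 2, 9, 10, 11 and 13 lie below the line.

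Some members followed each other in number. There were 6 runs of consecutive numbers, 1 of 3 members and 5 of 2, which took in 13 members. On A12, Gh_A12G2296 had 9.02, 17.1 and 5.36 FPKM in virescent leaves, against 72.9, 45.1 and 112 FPKM in the wild type. Gh_A12G2297 had 0.51, 1.46 and 0.13 FPKM in virescent leaves, against 7.02, 2.11 and 10.1 FPKM in the wild type. Gh_A12G2298 had 7.80, 16.1 and 3.75 FPKM in virescent leaves, against 49.6, 34.3 and 99.3 FPKM in the wild type. The libraries stood in the same order in all 3 genes, although the middle one was far less abundant. On D12, a label of the same number, Gh_D12G2433 had 13.6, 23.6 and 10.4 FPKM in virescent leaves, against 104, 52.2 and 160.1 FPKM in the wild type. Gh_D12G2434 had 8.39, 16.8 and 4.78 FPKM in virescent leaves, against 46.7, 30.4 and 90.4 FPKM in the wild type, again in that order.

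D05 held 2 of the runs. Gh_D05G2756 had 3.13, 7.61 and 1.68 FPKM in virescent leaves, against 33.9, 19.6 and 47.6 FPKM in the wild type. Gh_D05G2757 had 2.48, 4.34 and 1.41 FPKM in virescent leaves, against 18.4, 10.3 and 21.9 FPKM in the wild type. This pair kept the order of the A12 run. Gh_D05G1550 had 0.70, 5.35 and 1.52 FPKM in virescent leaves, against 11.8, 9.71 and 26.3 FPKM in the wild type. Gh_D05G1551 had 0.63, 2.63 and 0.92 FPKM in virescent leaves, against 13.3, 7.26 and 19.8 FPKM in the wild type. In the run from Gh_D05G1550 virescent 1, not 3, was lowest in both genes. On A05, Gh_A05G1382, given above, was followed by Gh_A05G1383 with 0.08, 0.94 and 0.36 FPKM in virescent leaves, against 7.16, 3.81 and 11.4 FPKM in the wild type. Virescent 1 was lowest in this pair too. No member had values identical to those of another identifier in all 6 libraries. Whether neighbours in number share sequence and reads was not tested.

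**Figure D5:**
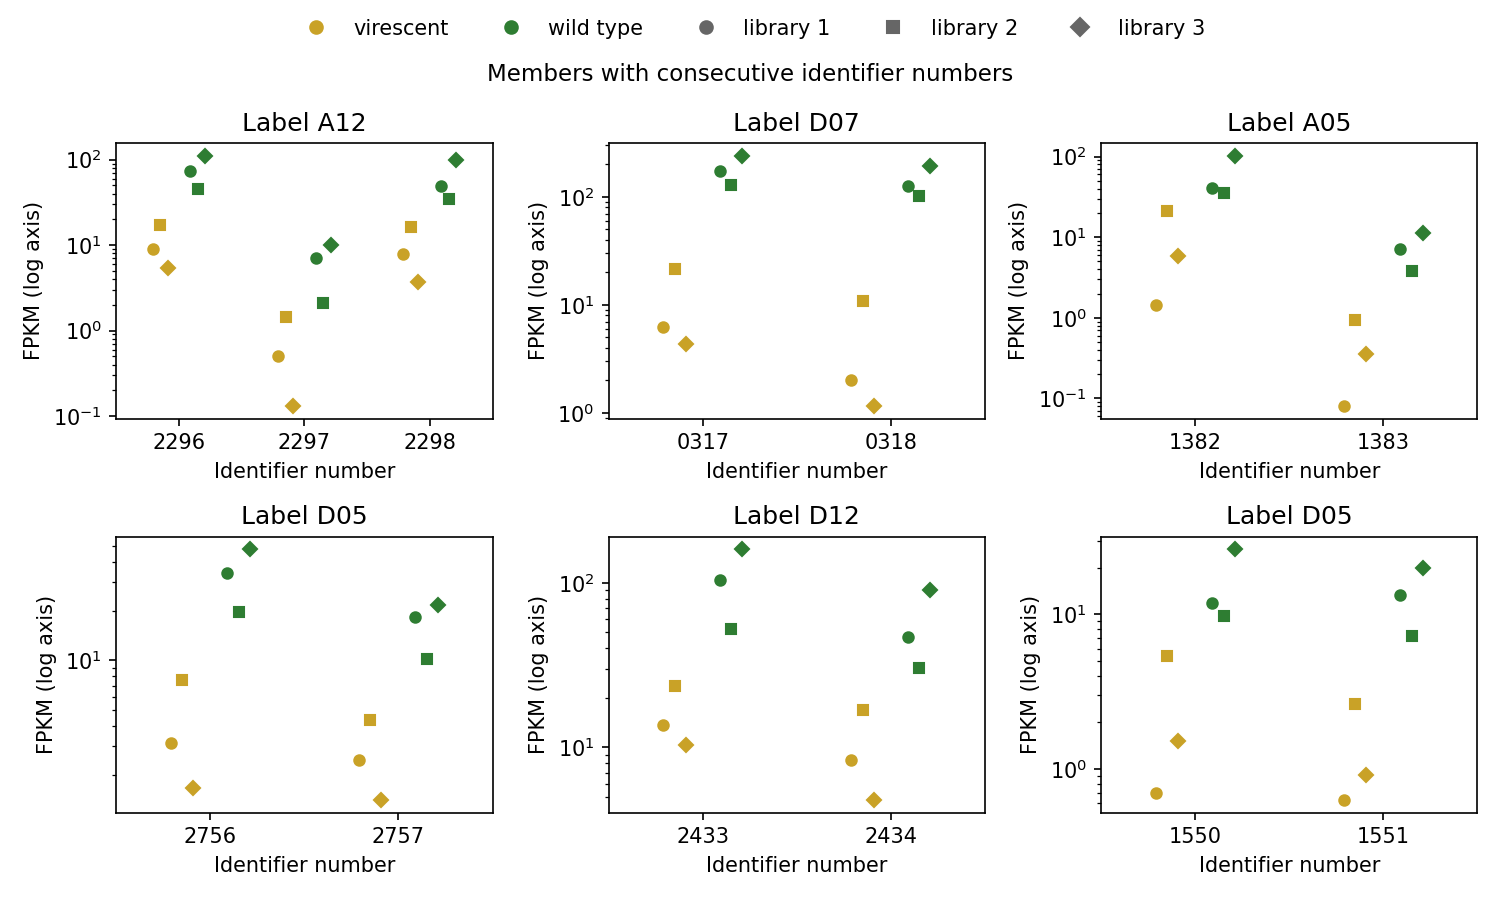
FPKM (log axis) of the 13 members in runs of consecutive identifier numbers, in virescent (yellow) and wild-type leaves (green), with a marker shape for each library number. Members of a run keep 1 order of libraries, with virescent 2 the highest virescent library in all 13 genes and wild type 2 the lowest wild-type library.

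Genes that stand next to a member in number, without being members, were taken by their number. Their own values still had to pass the FPKM filter and to miss the rule, so neighbours with the strongest falls are left out. The labelled tested genes set beside them include the members. Of 165 such tested genes 18 were called lower by limma (10.9%) and 7 higher, where 4.13% of the 38766 tested genes with a chromosome label were called lower. Their median log2 change was -0.065, against 0.050 over all labelled tested genes, and the median neighbour thus lay close to no change. That called genes with consecutive numbers tend to share a direction was already known from these libraries. No value for that tendency is given here, so 10.9% cannot be set against it. Over all 43104 tested genes 4.05% were called lower and 10.3% in either direction, so higher calls were the more common ones. Within 5 numbers of a member 49 of 791 were called lower (6.19%) and 38 higher. Of the 18 called lower directly beside a member, the 3 with the largest falls are named after their values were seen. Gh_D13G2087, beside Gh_D13G2088, had 0.37, 0.84 and 0.87 FPKM in virescent leaves, against 5.05, 2.43 and 9.97 FPKM in the wild type (log2 change -1.86 ± 0.38, SE, limma adjusted p = 0.02624). Gh_D07G0911, beside Gh_D07G0910, had 0.37, 0.73 and 0.21 FPKM in virescent leaves, against 3.57, 2.36 and 6.11 FPKM in the wild type (log2 change -1.75 ± 0.28, SE, limma adjusted p = 0.01378). Gh_D08G0810, beside Gh_D08G0811, had 10.2, 20.8 and 11.1 FPKM in virescent leaves, against 41.4, 44.8 and 54.6 FPKM in the wild type (log2 change -1.73 ± 0.26, SE, limma adjusted p = 0.01155). The running numbers are only assumed to follow the chromosome.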

How the data were processed

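RNA from leaves was extracted with a kit made for polysaccharides and polyphenols, per the labels' protocols. The authors deposited 1 table of FPKM values, per the file headers, with 1 column for each of the 6 libraries, rounded to 2 decimals. What aligned the reads and counted them, and on which annotation, is not given in the sources used here. Only mm10, a mouse build, is named in the submitters' processing notes, so no coordinates are given. FPKM already divide by transcript length and mapped fragments, and a value also moves with the share of the most abundant transcripts. The number of mapped fragments is not given, so no counting interval or detection limit can be stated.

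Genes of at least 1 FPKM in 3 or more libraries (43104) were compared on log2(FPKM + 1) with limma 3.58.1 in R 4.3.3 (genotype as the only term, mean-variance trend, Benjamini-Hochberg adjustment over all tested genes, threshold 0.05). The log2 scale with a pseudocount of 1 understates the change of low genes. The genotype label set each library's group. Lists of leaf pathways and cell types were to be filled by product description, and no identifier had one, so these lists were not used.

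Members and rules were chosen with earlier results of these data known. The text names the 6 largest falls, the 4 members highest in each genotype, the 2 least and 2 most variable in virescent leaves, the 2 genes on either side of the threshold, and members in runs. That rule gave 26 identifiers, of which 24 were members. A class for members at 0 in all virescent libraries, and a class for members with identical values, were empty. Other names are marked as chosen after their values were seen.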

Additional observations from a re-analysis of the deposited data

How the results depend on the processing

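The rule gave 350 genes at a pseudocount of 0.1, 361 at a threshold of -1.5, 61 at -2.5, 379 without both number-2 libraries, and 93 to 257 with 1 library left out. It gave 126 to 157 with either scaling or another filter. Called members numbered 35 to 142 with 1 library left out, and 98 of 146 without a filter on low values. With the replicate number as a block 44 of 146 were called. From their genotype means, libraries of 1 number deviated with correlations of 0.081, -0.28 and -0.24. Whether libraries of 1 number shared a batch or handling was not tested. The median change of the members was -3.05 without both number-2 libraries and moved by less than the spread of the virescent libraries under the other alternatives. Lower calls among genes near a member were 6.19% within 5 numbers. The cause was not tested. Median-ratio scaling moved the median change of all tested genes to -0.002. Among 35 named genes and 485 refits, the direction never turned, which the choice of genes largely fixed, and the threshold was lost in 59 and gained in 15. Leaving out wild type 1 lost 16 of these calls and the block 15. Depth limits could not be given.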

Other observations

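Of the 6 eligible genes with a change of -2 or below that the rule left out, 3 lay close together on D06 and were all but missing from 2 virescent libraries. Gh_D06G0237 had 0.02 FPKM in virescent 1, was listed at 0 in virescent 2 and had 28.6 FPKM in virescent 3, against 21.0, 23.4 and 21.2 FPKM in the wild type. Gh_D06G0236 had nearly the same values, with 0.05 FPKM in virescent 1, 0 in virescent 2 and 28.6 FPKM in virescent 3, against 21.0, 23.5 and 21.2 FPKM in the wild type. Gh_D06G0233 was listed at 0 in virescent 1 and 2 and had 10.8 FPKM in virescent 3, against 10.6, 12.8 and 11.2 FPKM in the wild type. Virescent 3 thus lay above every wild-type library in the first 2 genes and within the wild-type range in Gh_D06G0233. Whether the first 2 share reads was not tested. In the other 3, virescent 2 lay above wild type 2, while virescent 1 and 3 lay below every wild-type library. Gh_A10G0539 had 5.66, 41.5 and 7.54 FPKM in virescent leaves, against 121, 30.4 and 525 FPKM in the wild type. Gh_D10G0579 had 1.01, 35.5 and 2.09 FPKM in virescent leaves, against 40.7, 6.73 and 217.6 FPKM in the wild type. Gh_D05G2138 had 0.59, 9.50 and 0.47 FPKM in virescent leaves, against 17.5, 6.70 and 26.8 FPKM in the wild type. These genes were named after their values were seen.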
